A study of Mus musculus with 17 samples.

Results

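The EGF-like ligands and the sheddases that release them were followed here as 9 genes, chosen by their symbols in the count table: the ligand genes Areg, Ereg, Btc, Hbegf, Tgfa, Epgn and Nrg1, and the sheddase genes Adam17 and Adam10. The table holds 25198 genes, 9603 of which had enough reads to be tested, and 8 of the 9 members were among them. Hbegf was below that filter. Antral follicles of CD1 mice 16 days old, after 8 days of encapsulated growth in vitro (eIVFG), were compared in 11 Control and 6 Tyrphostin libraries, with 3 pooled follicles in each. The treatment text names hCG (human chorionic gonadotropin, which stands in for luteinizing hormone, LH), DMSO as the vehicle and Tyrphostin-AG1478 at 10 µM, which blocks the kinase of the EGF receptor EGFR, for 4 h. All samples carry this text alike, and it does not say whether hCG or DMSO was given to Control follicles. Batch 1 held 6 Control and 3 Tyrphostin libraries and batch 2 held 5 and 3. A number in the column names of the counts divides the Control libraries into 5 sets. Sets 1 and 2 were in batch 1, and sets 4, 5 and 6 in batch 2.

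These ligands are made as membrane-anchored precursors with an EGF-like domain, which becomes a soluble or locally acting signal once a metalloprotease cuts it from the cell surface. In the ovulatory follicle LH acts on the mural granulosa cells, which then make amphiregulin, epiregulin and betacellulin, and these ligands carry the signal through EGFR to the cumulus cells and the oocyte. ADAM17 is the main sheddase of amphiregulin, epiregulin, TGF-alpha, HB-EGF and epigen, and ADAM10 that of betacellulin.

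Library totals ran from 1820545 to 8291024 counts, and 3 counts corresponded to 0.336 to 1.64 CPM (counts scaled by TMM to a common library total). Summed markers of granulosa cells (6 genes) lay between 34700 and 52800 CPM in every library, nearly all of it Inha (44600 CPM ± 4600 in Control and 43000 CPM ± 5460 in Tyrphostin, SD), and none was at 0 in every library of a group. Of the 5 granulosa markers tested, Cyp19a1 (159 to 777 CPM; log2 fold change 2.35) and Fshr (8.31 to 14.8 CPM; 0.84) were higher with Tyrphostin (edgeR adjusted p = 2.84e-07 and 0.0344), and Inha, Nr5a1 and Amhr2 were not called. In batch 1 the summed oocyte markers (9 genes) were at 30.7 to 65 CPM in Tyrphostin and 25.9 to 76.6 CPM in Control libraries, and those of theca and stroma (9 genes) at 241 to 395 CPM and 237 to 677 CPM. In batch 2 the oocyte sums were 77.2 to 289 CPM and 33.4 to 184 CPM, and the theca and stroma sums 737 to 2790 CPM and 403 to 2010 CPM. Immune markers (5 genes) summed to 43.6 to 855 CPM in Tyrphostin and 53.8 to 462 CPM in Control libraries of batch 2, against 18.3 to 52.4 CPM and 17.4 to 60.9 CPM in batch 1, and endothelial markers (4 genes) to at most 87.9 CPM. The part of these other cells in the results below was not tested, and in pooled follicles fewer cells of a type and less RNA per cell cannot be told apart. Whether libraries of 1 group come from separate animals or cultures is not stated, so p-values measure the spread between these libraries only.

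The members differed widely in level, and Ereg stood at the top. Per kb of exon its median was 2980 CPM in Control and 2590 CPM in Tyrphostin libraries. Btc followed with medians of 994 and 513 CPM per kb, Areg with 232 and 125, and Epgn with 22.5 and 8.85. The order Ereg, Btc, Areg, Epgn was kept in 11 of 11 Control and 6 of 6 Tyrphostin libraries. The sheddases stood near Epgn, Adam17 with medians of 18 and 14.4 CPM per kb and Adam10 with 12.1 and 13.8. In Tyrphostin libraries both medians were above that of Epgn. Neither Epgn and Adam17 nor Adam17 and Adam10 were separated: Epgn exceeded Adam17 in 7 of 11 Control and 1 of 6 Tyrphostin libraries, and Adam10 in 9 of 11 and 2 of 6, and Adam17 exceeded Adam10 in 8 of 11 and 4 of 6. Tgfa (1.23 and 1.02 CPM per kb), Nrg1 (0.629 and 0.187) and Hbegf (0.185 and 0.0831) closed the order. Tgfa exceeded Nrg1 in 8 of 11 Control and 6 of 6 Tyrphostin libraries, and Nrg1 exceeded Hbegf in all 17. These lengths join every annotated exon, so a gene whose follicle transcript is shorter has a higher true level per kb.

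**Figure D1:**
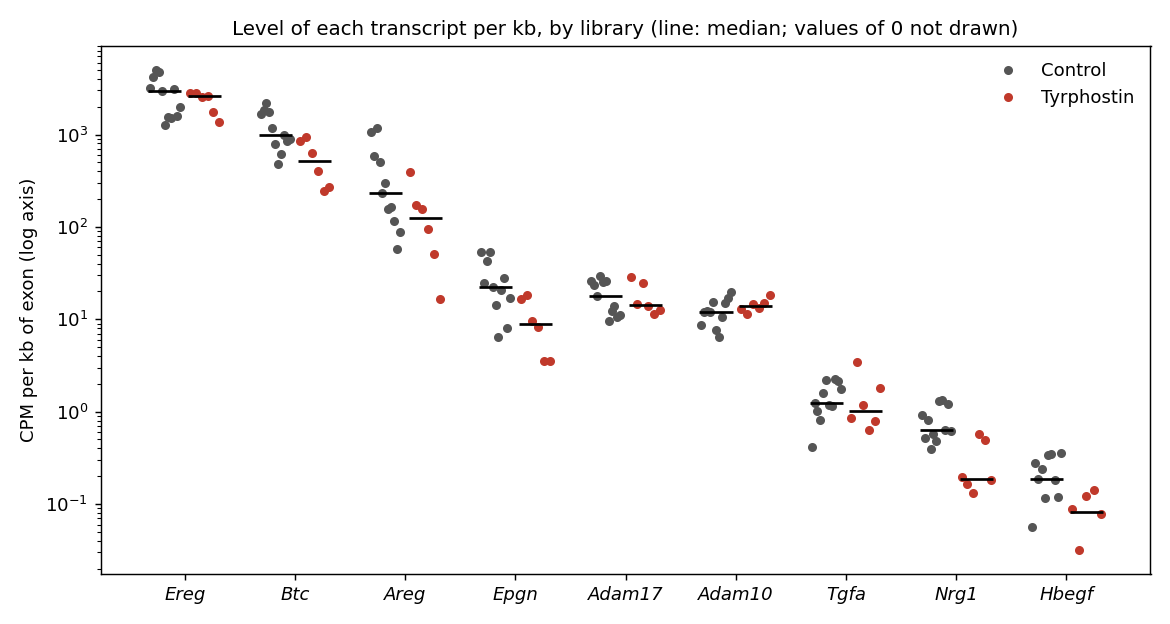
Level of each of the 9 transcripts in CPM per kb of exon on a log axis, with 1 point per library, Control in grey and Tyrphostin in red, and a line at each group's median. Ereg and Btc lie above both sheddases in every library, Areg lies above them in all but Tyrphostin 6 (16.7 against 18.4 for Adam10), and Hbegf has the lowest medians; the values of 0 (Hbegf in Control 7 and Tyrphostin 5) cannot be drawn on this axis.

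With batch as a term, 4 of the 8 members tested were lower in Tyrphostin libraries and 0 were higher (edgeR quasi-likelihood test, Benjamini-Hochberg adjusted p under 0.05). Over all genes tested, 6.25% were called lower and 4.35% higher. Btc, Epgn, Nrg1 and, at the threshold, Areg made the 4 lower members, while Ereg, Tgfa, Adam17 and Adam10 did not pass. The median log2 fold change of the 8 was -0.67, against 0 for all genes tested. At an unadjusted p under 0.05 edgeR gave the same 4 members, beside 2279 of the 9603 genes tested, in either direction. With total-count scaling 64.4% of all calls were higher, against 41.1% with TMM, the median of all genes moved to 0.15, and 3 members (without Areg) were called lower. Within batch 1 the test called 1 of 8 members lower (Nrg1) and 0 higher, where 3.79% of genes were called lower and 2.94% higher. In batch 2 it called 0 of 8 in either direction, where 0.427% of genes were called lower and 0.193% higher. Areg, Btc, Epgn and Nrg1 had an edgeR unadjusted p under 0.05 in batch 2, as they did in batch 1. So did 1047 of 9830 genes in batch 2 and 2001 of 9423 in batch 1, in either direction. The interaction of treatment and batch called 0% of the 9603 genes and 0 members, and 0 members had an unadjusted p under 0.05 for it in edgeR (342 genes did).

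**Figure D2:**
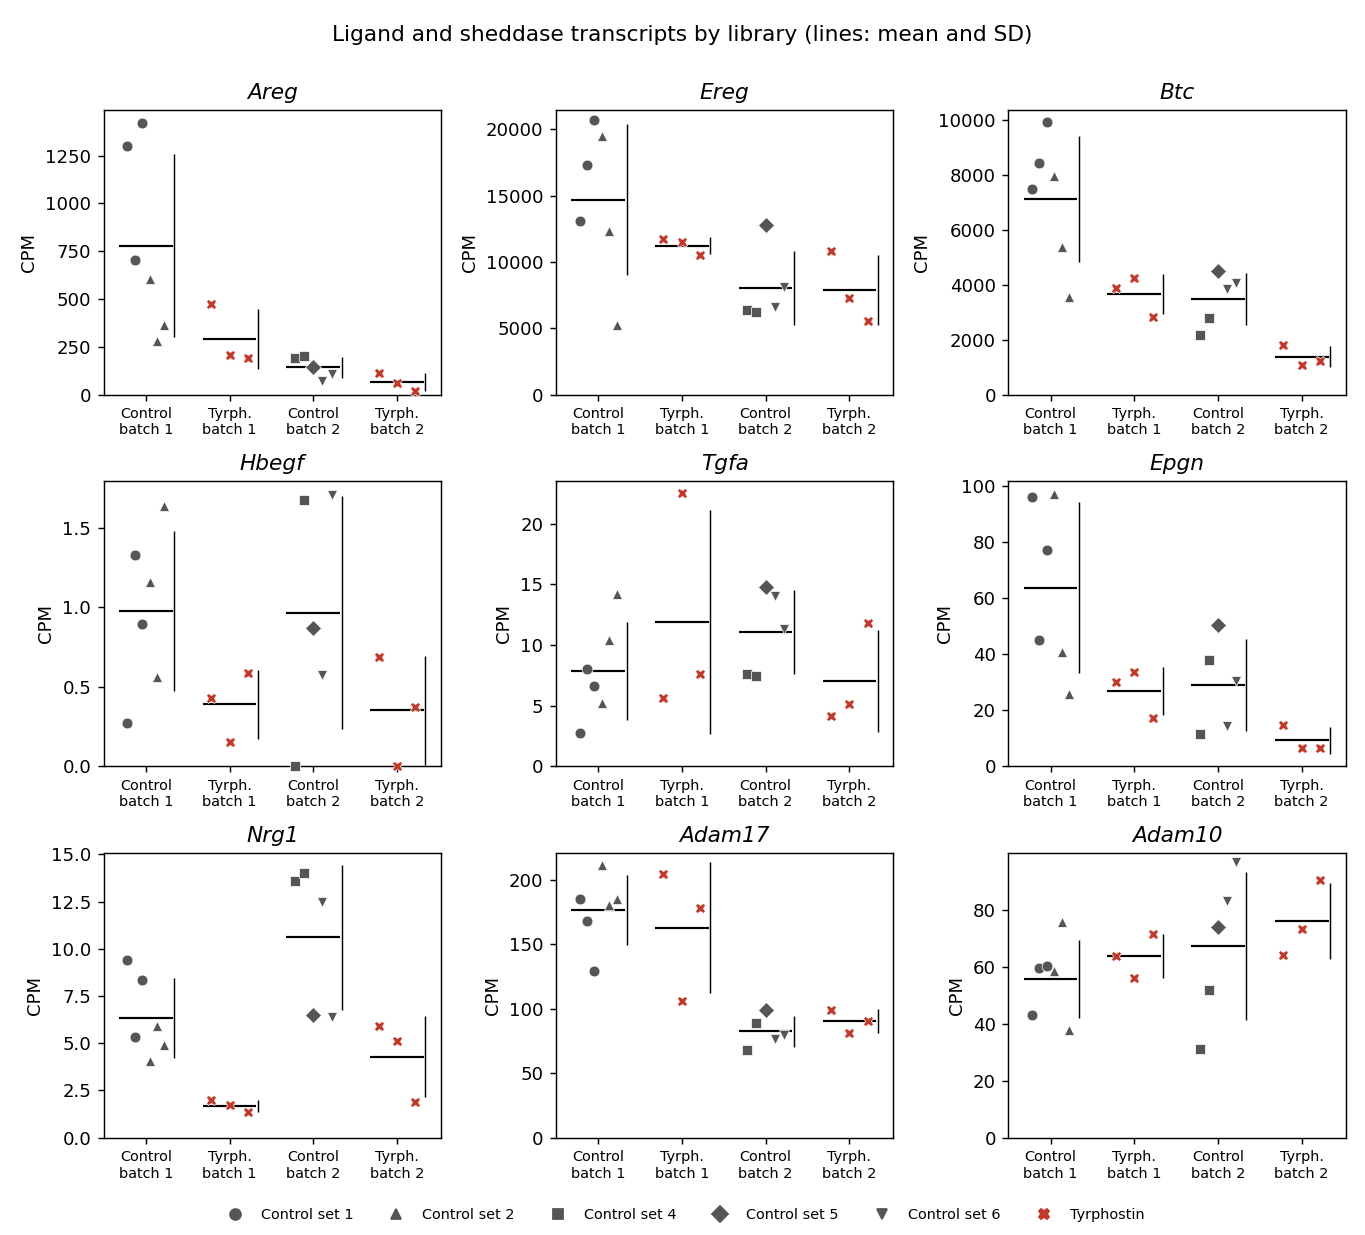
CPM of each member in each library by group and batch, with the mean (horizontal line) and SD (vertical line); marker shapes show the Control sets, and each panel has its own linear axis from 0. Nrg1 in Tyrphostin libraries lies below every Control library of the same batch, while Ereg and both sheddases overlap between the groups.

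Of the ligand genes that LH is known to induce, Ereg, Areg and Btc, together with Epgn, whose product epigen is a weak ligand of EGFR, share a stretch of mouse chromosome 5. In GENCODE M21 on GRCm38 the 4 genes lie within 375.5 kb (chr5:91027464-91402994): Epgn at 91027464 to 91035215, Ereg at 91074622 to 91093646 and Areg at 91139599 to 91148432 on the plus strand, and Btc at 91357261 to 91402994 on the minus strand. All are protein coding, and counts were summed over whole genes. A RefSeq promoter entry (GRCm38.p6) was found for 6 of the 9 members, 3 of them in this stretch. Ereg had none, so called and uncalled members of the stretch cannot be compared here. The 250 bases before the RefSeq start are printed for these 3, the members of the stretch that were called lower. These windows cover chr5:91027267-91027516 (plus strand) for Epgn, chr5:91139349-91139598 (plus strand) for Areg and chr5:91402995-91403244 (minus strand) for Btc. The Epgn window runs past the GENCODE start of 91027464, so its last bases lie inside the GENCODE gene. Capitals mark matches to the cAMP response element TGACGTCA and to its half-site TGACG, read on both strands (CGTCA on the other), so that the full element also counts as half-sites.
Epgn promoter: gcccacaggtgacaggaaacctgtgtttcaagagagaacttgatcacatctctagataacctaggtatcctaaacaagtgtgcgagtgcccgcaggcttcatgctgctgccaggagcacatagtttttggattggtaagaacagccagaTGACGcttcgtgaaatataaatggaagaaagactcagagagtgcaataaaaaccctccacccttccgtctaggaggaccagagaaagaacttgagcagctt
Areg promoter: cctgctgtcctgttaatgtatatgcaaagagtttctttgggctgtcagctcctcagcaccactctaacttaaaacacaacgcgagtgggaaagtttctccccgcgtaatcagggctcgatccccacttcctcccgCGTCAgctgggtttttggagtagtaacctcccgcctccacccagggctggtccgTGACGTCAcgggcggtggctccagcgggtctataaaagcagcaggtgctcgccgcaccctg
Btc promoter: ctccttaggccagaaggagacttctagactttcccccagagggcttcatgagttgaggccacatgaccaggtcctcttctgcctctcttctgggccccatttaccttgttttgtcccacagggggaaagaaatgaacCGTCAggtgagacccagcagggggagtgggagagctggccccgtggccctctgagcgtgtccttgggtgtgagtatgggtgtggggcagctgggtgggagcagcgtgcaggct

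Areg was the only one of the 6 promoters to hold the full element, at bases -61 to -54, counting the start as base 0. Of all 32851 promoter entries of this length, 1.55% held it. A further half-site of Areg lay at -115 to -111. Epgn had a half-site at -101 to -97, Btc at -113 to -109 and Adam10 at -67 to -63; 17.8% of all entries held at least 1. The AP-1 site TGANTCA, where N is any base, was in none of the 6 and in 6.75% of all entries. GC made up 57.2% of the Areg, 59.6% of the Btc and 46.8% of the Epgn promoter, against a median of 52.4% over all entries. Areg held 15 CG dinucleotides, Btc 4 and Epgn 5, with a median of 6. A match is a matter of letters only, and binding was not measured here.

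Ereg, which codes for epiregulin, was the most abundant ligand transcript and was not called. Control libraries of batch 1 ran from 5250 CPM over a median of 15200 to 20700 CPM, and the Tyrphostin libraries of that batch were at 11700, 11500 and 10500 CPM. In batch 2 the Control libraries were at 6360, 6260, 12800, 6590 and 8120 CPM and the Tyrphostin libraries at 10800, 7290 and 5560 CPM. The groups overlapped in both batches, and Control libraries spread more widely than the Tyrphostin ones in batch 1. Group means were 11700 CPM ± 5620 (SD, n = 11) and 9570 CPM ± 2540 (SD, n = 6), with a fitted log2 fold change of -0.21 ± 0.25 (SE; adjusted p = 0.672 in edgeR; 95% interval -0.72 to 0.3). The interval leaves room for a fall of up to 0.72 or a rise of up to 0.3 on the log2 scale. The span of an antisense gene, Gm19610, overlaps that of Ereg by 152 bases, introns included. Whether exons are shared was not checked. Strand-specific counting is not stated, so any reads of shared exons cannot be told apart.

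Btc, which codes for betacellulin, a ligand of EGFR and ErbB4, was 2.2-fold lower with Tyrphostin. In batch 1 Control libraries ran from 3540 CPM over a median of 7730 to 9930 CPM, against 3890, 4260 and 2830 CPM in Tyrphostin libraries. In batch 2 they were at 2180, 2790, 4490, 3860 and 4050 CPM, against 1810, 1090 and 1220 CPM. The groups did not overlap in batch 2, and in batch 1 only Tyrphostin 3 lay below every Control library. Means were 5460 CPM ± 2570 (SD, n = 11) and 2520 CPM ± 1360 (SD, n = 6), with a fitted log2 fold change of -1.14 ± 0.23 (SE; adjusted p = 0.00173 in edgeR). The effect was -0.96 within batch 1 and -1.34 within batch 2, with edgeR adjusted p = 0.0711 and 0.0997. With a library left out, the first did not pass in 8 of 9 fits (edgeR adjusted p up to 0.216). It passed only without Control 6 (0.0141). The second did not pass in 7 of 8 fits (up to 0.372) and passed only without Control 7 (0.0159).

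Areg, which codes for amphiregulin, varied widely between Control libraries, with a coefficient of variation of 61.3% in batch 1 and 38.9% in batch 2. Set 1 of batch 1 was at 1300, 704 and 1420 CPM and set 2 at 606, 282 and 362 CPM. Batch 2 was lower still, at 192, 202, 142, 70 and 108 CPM. Tyrphostin libraries were at 473, 208 and 189 CPM in batch 1 and at 114, 61.5 and 20.3 CPM in batch 2. In each batch 2 of the 3 Tyrphostin libraries lay below every Control library and the third lay among them. The means, 490 CPM ± 476 (SD, n = 11) and 178 CPM ± 162 (SD, n = 6), gave a fitted log2 fold change of -1.28 ± 0.4 (SE; adjusted p = 0.0493 in edgeR), or 2.43-fold lower. Within the batches the log2 fold change was -1.42 and -1.12 (edgeR adjusted p = 0.15 and 0.454). Leaving out Control set 1 moved it to -0.85 (edgeR adjusted p = 0.189), and the call was kept in 4 of the 17 fits that left out a library.

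Epgn followed the same direction at a lower level. Control libraries ran from 25.7 CPM over a median of 61 to 96.9 CPM in batch 1 and were at 11.5, 37.9, 50.4, 14.4 and 30.5 CPM in batch 2. Tyrphostin libraries were at 30.1, 33.4 and 17.2 CPM in batch 1 and at 14.8, 6.47 and 6.34 CPM in batch 2. Tyrphostin 3, 5 and 6 lay under the lowest Control library of their batch, and the others overlapped the lowest Control libraries. Epgn was 2.66-fold lower, from a mean of 47.8 ± 29.9 CPM (SD, n = 11) to 18.1 ± 11.5 CPM (n = 6), with a fitted log2 fold change of -1.41 ± 0.35 (SE; adjusted p = 0.012 in edgeR). Within batches the values were -1.24 and -1.62 (edgeR adjusted p = 0.0731 and 0.219). With a library left out, the first did not pass in 8 of 9 fits (edgeR adjusted p up to 0.217). It passed only without Control 6 (0.0175). The second did not pass in 8 of 8 fits (up to 0.602).

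The ratio of 2 ligand transcripts within 1 library does not depend on scaling between libraries. The 6 ratios were chosen after the values above had been seen and restate the same counts, so they are given as a description with no test. For every 1000 Ereg counts there were 570, 486, 481, 408, 438 and 674 Btc counts in the Control libraries of batch 1 and 332, 370 and 269 in the Tyrphostin libraries. In batch 2 there were 343, 445, 352, 586 and 499 in Control and 167, 150 and 220 in Tyrphostin libraries. Every Tyrphostin library lay below every Control library of either batch except for Tyrphostin 2, which at 370 stood above Control 7 (343) and Control 9 (352) of the other batch. The mean log2 ratio of Btc to Ereg differed between the groups by -0.65 in batch 1 and -1.3 in batch 2. The ratio of Epgn to Ereg differed by -0.88 and -1.53, and that of Areg to Ereg by -1.05 and -1.33.

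Among the 3 lower members of the chromosome 5 stretch the ratios were described in the same way. The mean log2 ratio of Areg to Btc differed between the groups by -0.4 in batch 1 and -0.02 in batch 2, Areg to Epgn by -0.17 and 0.2, and Btc to Epgn by 0.23 and 0.22. Of the summed level per kb of the 7 ligands, Ereg made up 63.8% ± 6.25 (SD) in the 11 Control and 78% ± 6.92 (SD) in the 6 Tyrphostin libraries. Btc went from 27.5% ± 3.66 to 17.5% ± 4.74, Areg from 7.99% ± 5.01 to 4.16% ± 2.92, and Epgn from 0.58% ± 0.211 to 0.302% ± 0.114 (SD). These shares were not tested.

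**Figure D3:**
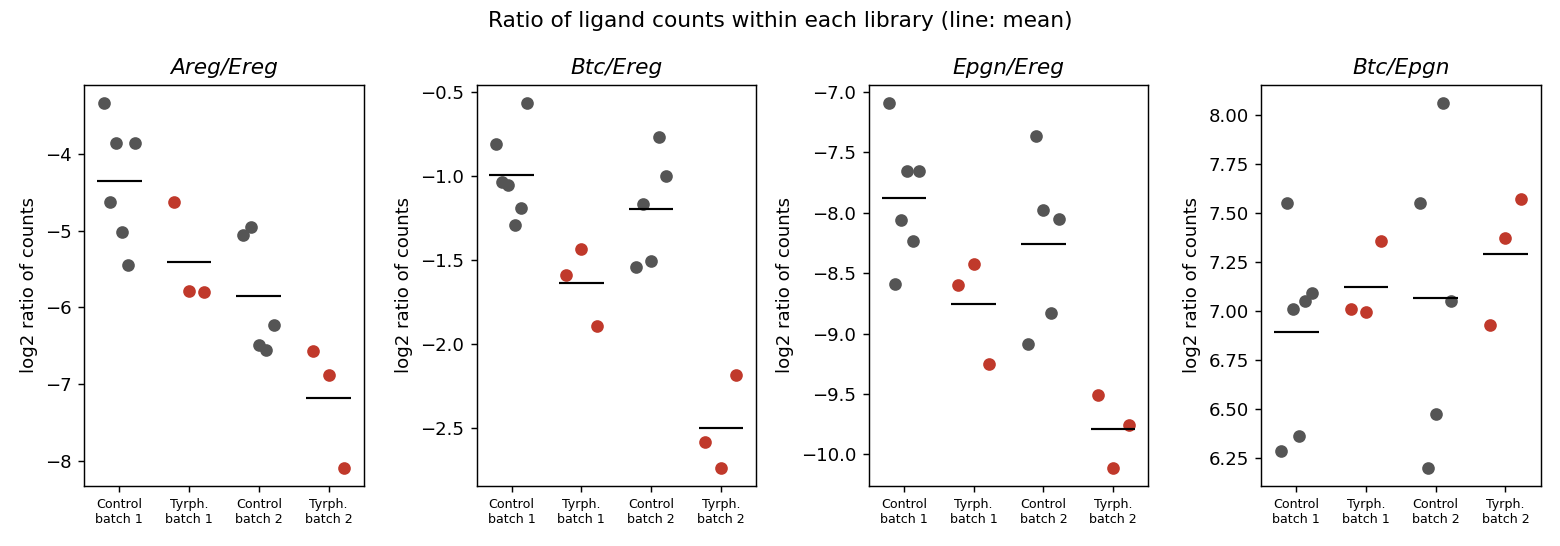
Log2 ratio of the counts of 2 ligand genes within each library, by group and batch, with a line at each mean; each panel has its own axis. For Btc to Ereg the 3 Tyrphostin libraries of each batch lie below its Control libraries, while Btc to Epgn overlaps in both batches.

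Tgfa, which codes for TGF-alpha, a high-affinity EGFR ligand, was rare and showed no called change. Control libraries ran from 2.7 CPM over a median of 7.29 to 14.2 CPM in batch 1 and were at 7.61, 7.4, 14.8, 14 and 11.3 CPM in batch 2. Tyrphostin libraries were at 5.6, 22.5 and 7.61 CPM in batch 1 and 4.12, 5.12 and 11.8 CPM in batch 2. Tyrphostin 2 held the highest value of all 17 libraries, and the rest overlapped Control or lay below it in batch 2. The log2 fold change of Tgfa was 0.06 ± 0.36 (SE; adjusted p = 0.95 in edgeR; 95% interval -0.69 to 0.8), and its sign turned without Tyrphostin 2 (-0.45). In batch 1 it was 0.65 and in batch 2 -0.63; the difference between them did not pass (edgeR interaction, unadjusted p = 0.0698). The span of Gm43917, on the other strand, overlaps that of Tgfa by 2360 bases, introns included, and shared exons were not checked.

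Nrg1 codes for neuregulin 1, which binds ErbB3 and ErbB4 and not EGFR, and it fell in the fit over both batches. Control libraries were at 9.43, 5.34, 8.37, 4.06, 5.93 and 4.93 CPM in batch 1 and at 13.6, 14, 6.51, 12.5 and 6.4 CPM in batch 2. Tyrphostin libraries were at 2.01, 1.71 and 1.37 CPM in batch 1 and at 5.9, 5.12 and 1.87 CPM in batch 2. In both batches 3 of 3 Tyrphostin libraries lay under the lowest Control library. Nrg1 fell from a mean of 8.28 ± 3.61 CPM (SD, n = 11) to 2.99 ± 1.98 CPM (n = 6), 2.97-fold lower, with a fitted log2 fold change of -1.57 ± 0.29 (SE; adjusted p = 0.000835 in edgeR). It was -1.88 within batch 1 (edgeR adjusted p = 0.0079) and -1.31 within batch 2 (0.24).

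The Nrg1 values rest on few reads, 7 to 43 counts in a Tyrphostin and 9 to 125 counts in a Control library. Nrg1 spans chr8:31814551-32884029 on the minus strand and has many isoforms that a count per gene does not separate. Its span overlaps that of the lincRNA Gm26578, on the other strand, by 7256 bases, introns included, and shared exons were not checked. Its receptors were scarce: Erbb3 reached at most 14 counts and Erbb4 at most 4 in any library, both below the filter.

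Hbegf, which codes for HB-EGF, was close to the detection limit. Control libraries held 1, 6, 3, 4, 2 and 3 counts in batch 1 and 0, 15, 2, 3 and 8 in batch 2, and Tyrphostin libraries 3, 1 and 3, then 5, 0 and 2. A count of 0 allows up to 0.787 CPM in Control 7 and 0.809 CPM in Tyrphostin 5, counting error only. Means were 0.973 CPM ± 0.586 (SD, n = 11) and 0.372 CPM ± 0.258 (SD, n = 6). The difference in log2(CPM + 1) was -0.48 (exact two-sided permutation within batches, p = 0.0525, and 0.109 with 0.1 added in place of 1), and no difference was established at this depth.

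Adam17, the sheddase of most of these ligands, overlapped between the groups in both batches and was not called. Control libraries ran from 129 CPM over a median of 182 to 211 CPM in batch 1, against 204, 106 and 178 CPM in Tyrphostin libraries. In batch 2 Control libraries were at 68, 89, 98.6, 76.7 and 79.6 CPM and Tyrphostin libraries at 99.3, 81.1 and 90.6 CPM. Batch, not group, separated these values, with the libraries of batch 2 at 68 to 99.3 CPM and those of batch 1 at 106 to 211 CPM. The log2 fold change was 0.01 ± 0.16 (SE; adjusted p = 0.988 in edgeR), the 95% interval of -0.32 to 0.33 was the narrowest of the 8 members, and the sign varied with the processing. Adam17 lies at chr12:21323509-21373632 (minus strand), and its span overlaps that of Iah1, on the other strand, by 311 bases. Shared exons were not checked there either.

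Adam10, the sheddase of betacellulin, was not called either. Control libraries ran from 37.8 CPM over a median of 59.1 to 75.6 CPM in batch 1, and were at 31.2, 51.8, 73.8, 83.2 and 96.7 CPM in batch 2. Tyrphostin libraries were at 63.8, 56.2 and 71.6 CPM and at 64.2, 73.3 and 90.5 CPM, inside the Control range of their batch. The log2 fold change was 0.18 ± 0.19 (SE; adjusted p = 0.628 in edgeR), with a 95% interval of -0.22 to 0.59. Adam10 lies at chr9:70678997-70780229 on the plus strand.

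**Figure D4:**
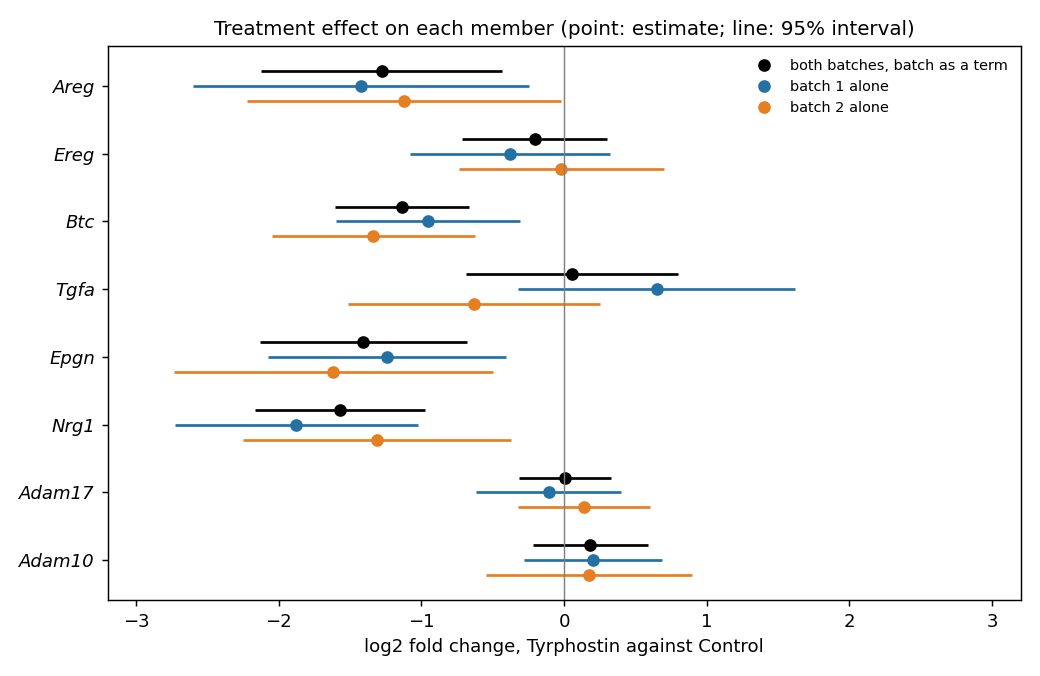
Log2 fold change of Tyrphostin against Control for the 8 members tested, over both batches and within each, with 95% intervals as lines. The intervals of Areg, Btc, Epgn and Nrg1 lie below 0 in all 3 fits, and those of Ereg, Tgfa, Adam17 and Adam10 include 0.

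Control libraries alone showed how far the members vary without a difference in inhibitor. Of the 7 members tested between batches, 3 were lower in batch 2 (Areg, Btc and Adam17) and 0 higher, where 6.77% of the 6680 genes tested were called lower and 7.26% higher. The filter here took the Control libraries as 1 group, and Tgfa as well as Hbegf fell below it. Areg was 5.41-fold lower in batch 2 (log2 difference -2.44 ± 0.43, SE; edgeR adjusted p = 0.00223), a larger distance than that between the treatment groups. Adam17 differed by -1.07 (edgeR adjusted p = 0.00121) and Btc by -1.01 (edgeR adjusted p = 0.0259, which was over 0.05 without Control 2, 3 or 8). Ereg (-0.85), Epgn (-1.12), Nrg1 (0.78) and Adam10 (0.3) did not pass in edgeR (adjusted p = 0.0826, 0.0839, 0.082 and 0.488). Of the 11 fits that left out a Control library, Ereg and Epgn each passed in 2. These were without Control 6 (0.0171 and 0.0434) and without Control 9 (0.0355 and 0.0307). Nrg1 passed in 1 of the 11, without Control 9 (0.0488), and also with total-count scaling (0.0378). The batches also differed in the markers of other cells given above, whose part in these differences was not tested.

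The genes around the members were read from the same fit in 6 lists of 36 genes, 26 of which were tested. A total of 4 of the 26 were lower and 1 was higher, beside 6.25% and 4.35% of all genes tested, and their median log2 fold change was -0.25. Of the other ErbB ligands only Nrg4 was tested (0.57 ± 0.28, SE; edgeR adjusted p = 0.216). Egf, the founding ligand, never exceeded 7 counts in a library, Nrg2 6 and Nrg3 8. Of the ErbB receptors 2 of 4 were tested and 0 were called: Egfr with -0.61 ± 0.23 (SE; edgeR adjusted p = 0.102) and Erbb2 with -0.18 ± 0.21 (0.672). Within batch 1 Egfr was lower, at 14.9 to 18.1 CPM in Tyrphostin and 23.6 to 38.1 CPM in Control libraries (-0.96; edgeR adjusted p = 0.0156), and within batch 2 it was at 14.4 to 38.3 and 16.9 to 48.5 CPM (-0.26; 0.893).

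Of the 4 partners and inhibitor of ADAM17, 1 fell. Rhbdf2 codes for iRhom2, which escorts ADAM17 to the cell surface, and went from a mean of 88.3 ± 31.4 CPM (SD, n = 11) to 42.9 ± 11.4 CPM (n = 6), with a fitted log2 fold change of -0.97 ± 0.18 (SE; adjusted p = 0.000818 in edgeR). In batch 1 it was at 40.4 to 61.1 CPM in Tyrphostin and 75.9 to 148 CPM in Control libraries, and in batch 2 at 26.1 to 41.2 and 45.3 to 85.6 CPM, with no overlap in either. Within the batches the values were -1.13 and -0.79 (edgeR adjusted p = 0.00826 and 0.238). The call was kept in all 17 fits that left out a library. The related Rhbdf1 (-0.33; edgeR adjusted p = 0.341), Frmd8, which stabilizes the iRhom complex (0.04; 0.937), and the inhibitor gene Timp3 (-0.67; 0.118) did not pass over both batches. Within batch 1 Timp3 was lower, at 142 to 195 CPM in Tyrphostin and 240 to 587 CPM in Control libraries (-1.23; edgeR adjusted p = 0.0144), and within batch 2 it was at 251 to 449 and 260 to 722 CPM (-0.13; 0.94).

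The tetraspanins that accompany ADAM10 were mostly below the filter: of 6, Tspan5 (-0.67 ± 0.34, SE; edgeR adjusted p = 0.239) and Tspan14 (-0.23 ± 0.21; 0.564) were tested and 0 called. Of the 10 other sheddases and convertases, 9 were tested and 1 was lower. Furin codes for a convertase that removes the inhibitory prodomain of ADAM proteases, and fell from a mean of 28.5 ± 12 CPM (SD, n = 11) to 11.7 ± 2.8 CPM (n = 6), with a fitted log2 fold change of -1.23 ± 0.24 (SE; adjusted p = 0.00122 in edgeR). It was at 10.6 to 16.2 CPM in Tyrphostin and 21.2 to 48.5 CPM in Control libraries of batch 1, which did not overlap, and at 8.39 to 11.5 and 11 to 32.1 CPM in batch 2, which did (within-batch log2 fold changes -1.33 and -1.11; edgeR adjusted p = 0.012 and 0.207). With the replicate number as a block the Furin value was -0.81 (edgeR adjusted p = 0.066). Adam9 (-0.62), Pcsk6 (-0.71) and Adam19 (-0.95) had edgeR adjusted p = 0.061, 0.0626 and 0.189.

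Of the 8 genes on the LH side, 2 were lower and 1 higher. Ptgs2, which codes for the inducible prostaglandin synthase COX-2, had a fitted log2 fold change of -2.4 ± 0.24 (SE; adjusted p = 5.33e-07 in edgeR) and the progesterone receptor gene Pgr of -1.17 ± 0.3 (0.0141). Within the batches Ptgs2 was -2.45 and -2.33 (edgeR adjusted p = 0.000111 and 0.0127) and Pgr -1.16 and -1.17 (0.0238 and 0.455). Pgr was at 763 to 1890 CPM in Tyrphostin and 2040 to 3530 CPM in Control libraries of batch 1. In batch 2 it was at 295 to 747 and 386 to 1890 CPM, where the groups overlapped. Lhcgr, the LH receptor gene, was higher, at 930 CPM ± 262 (SD, n = 6) against 465 CPM ± 295 (SD, n = 11), with a fitted log2 fold change of 1.02 ± 0.24 (SE; adjusted p = 0.00765 in edgeR). Lhcgr was at 670 to 777 CPM in Tyrphostin and 187 to 400 CPM in Control libraries of batch 1, and at 942 to 1400 and 271 to 1190 CPM in batch 2, where the groups overlapped. Within the batches it was 1.22 and 0.81 (edgeR adjusted p = 0.00377 and 0.556). The gene of the cAMP response element binding protein, Creb1, did not pass (-0.14 ± 0.29, SE; edgeR adjusted p = 0.826), nor did the prostaglandin receptor genes Ptger2 (-0.58; 0.382) and Ptger4 (0.1; 0.808) or the genes of the catalytic subunits of protein kinase A, Prkaca (0.56; 0.395) and Prkacb (0.23; 0.356).

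For the main LH-induced ligands, the genes with the most similar pattern were sought among 6315 genes, by Pearson r of log2 CPM over the 17 libraries after each batch's mean was subtracted. Areg was nearest to Map2k3 (r = 0.91, Spearman rho = 0.89), Tnfrsf12a (r = 0.9) and Rhog (r = 0.89). Btc was nearest to Sult1e1, which codes for estrogen sulfotransferase (r = 0.96, rho = 0.96), Chst11 (r = 0.93) and Cpne3 (r = 0.91). Ereg was nearest to Iqcb1 (r = 0.89, with a lower rho of 0.775), Nbn (r = 0.86, rho = 0.831) and Creb1 (r = 0.85, rho = 0.841). The libraries, their scaling and the treatment difference are common to all these values, which are a description and were not tested. Because the treatment difference enters r, the fold changes of these genes follow in part from how they were picked and are no separate result. The 3 genes nearest to Btc were lower with Tyrphostin (log2 fold changes -2.42, -0.91 and -1.02; edgeR adjusted p = 0.000927, 0.000688 and 0.0174), as were Map2k3 (-0.8; 0.00276) and Tnfrsf12a (-1.19; 0.00155), while Rhog (-0.42; 0.0799) and the 3 genes nearest to Ereg did not pass.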

How the data were processed

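The authors deposited 1 table of whole-number counts, with 25198 gene symbols as rows and 17 libraries as columns; the submitters' processing notes name STAR, HTSeq and GRCm38, without versions or roles. RNA was captured on RNA-SPRI beads for Smart-Seq2, which carries no molecular identifiers, per the labels' protocols; floors therefore cover counting error only, while the 95% intervals of fold changes come from the fit and include the spread between libraries. Strandedness is not given in the sources used here. Columns were matched to samples by name. The counts went into edgeR 4.0.16 (R 4.3.3; filterByExpr on treatment, TMM, robust quasi-likelihood F test); p was adjusted by Benjamini-Hochberg over all genes tested, with a threshold of 0.05. Treatment was fitted with batch as a term over the 17 libraries, within each batch and as an interaction with batch. Batches were also compared among Control libraries. There filterByExpr took all libraries as 1 group and left 6680 genes to test. The SE is the size of the log2 fold change divided by the square root of F. Hbegf was compared by exact permutation within batches. Log2 ratios of counts (0.5 added to each) were described. Lengths came from GENCODE M21. Alternatives covered scaling, DESeq2 1.42.0, limma 3.58.1 (voom), filters, batch, Control sets and omission of each library. The code was tested on simulated data. Among the 31 pairs of libraries within a group and batch none were copies, with chi-square per degree of freedom of at least 13.6. Pairs across batches or groups were not in this check. The members and lists were chosen with earlier results of these data known. Genes named singly are the 9 members; in each list, those called and up to 3 more of lowest p; and for Areg, Ereg and Btc the 3 genes of highest Pearson r among those with an average log2 CPM of at least 3; Creb1, Prkaca, Prkacb and others named as not passing, and the scarce genes below the filter, were added after their values were seen. Nrdc was read under its older symbol Nrd1.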

Additional observations from a re-analysis of the deposited data

Results flagged for a closer look

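Ereg reached 12800 CPM (29394 counts) in Control 9, against 6260 to 8120 CPM in the other Control libraries of batch 2. The gap to the nearest library was large for the range of the group. It was the only such value in the 27 groups of libraries searched, where chance gives about 1.35. Each of the 9 members was searched in Control of batch 1, Control of batch 2 and the 6 Tyrphostin libraries of both batches together. A batch difference widens the range of that pooled group and can hide an odd library, so the chance figure is only approximate. Control 9 is the only library of its set. Without it the log2 fold change of Ereg was -0.1 in place of -0.21 and was not called in either fit.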

How the results depend on the processing

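Nrg1 kept its direction and an edgeR, DESeq2 or limma adjusted p under 0.05 in 10 of 10 alternatives and whichever of the 17 libraries was left out, with log2 fold changes of -2.14 to -1.43 over the alternatives. Btc passed in 9 of 10 and Epgn in 8 of 10, and both in 17 of 17. Areg passed in 4 of 10. Its log2 fold change (adjusted p) was -1.12 (0.0661) with total-count and -1.25 (0.0527) with upper-quartile scaling, -1.24 (0.179) with no filter on low counts, -1.28 (0.0506) with at least 10 counts in 6 libraries, -1.46 (0.262) without the batch term and -1.24 (0.119) with Control libraries summed by set. In alternatives chosen after seeing the data it was -0.85 (0.189) without Control set 1 and -1.12 (0.139) without set 4. Leaving out a library gave -1.57 to -1.11 for Areg, which passed only without Control 5, 6 or 10 or Tyrphostin 4 and reached an adjusted p of 0.126 without Tyrphostin 2. Epgn was -1.37 (0.074) with no filter and -1.39 (0.09) without the batch term, where Btc was -1.12 (0.0659). The number of members lower, 4, was 2 with no filter and 1 without the batch term. Of all genes tested in those settings, 478 of 21622 and 382 of 9603 were lower. Pgr and Lhcgr each missed the threshold in 2 of 10 alternatives and Furin in 1, the replicate block. The cause was not tested in any of these cases.

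The 600 genes lower and 418 higher were 396 and 715 with total-count scaling, which moved the median of all genes to 0.15 and the share of higher calls from 41.1% to 64.4%; 382 and 237 without the batch term; and, from fewer samples, 365 and 259 with the replicate block. The higher genes were 265 with Control libraries summed by set, 246 without Control set 1, and 260 (without Tyrphostin 1) to 593 (without Control 7) with a library left out. Replicate numbers 1 to 6 of the sample titles are shared by both groups. Libraries that share one deviated together with r of only 0.03 to 0.32. For this reason, and because numbers 4 to 6 cross batches, they were not taken as pairs. The Control set numbers 1, 2, 4, 5 and 6 also recur among the Tyrphostin numbers, without crossing batches. Whether a set belongs with the Tyrphostin library of its number is not stated, and that pairing was not tested. With the replicate number as a block and batch as a term, the libraries numbered 1 to 6 hold no Control library of batch 2, so the effect rests on the 3 pairs within batch 1, Control 1 to 3 (set 1) against Tyrphostin 1 to 3. There 4 members were lower and 0 higher (Areg -2.04, Btc -1.24, Epgn -1.42, Nrg1 -2.14), and Furin was not called (-0.81, adjusted p = 0.066). Depth limits Hbegf, Nrg1 and Tgfa most.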
